A study of Mus musculus with 18 samples.

Results

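Lung RNA from mice fed N-(1-naphthyl)ethylenediamine dihydrochloride (NEDD) was set directly against lung RNA from mice fed pentachloronitrobenzene (PCNB), with no control group in the contrast. The series calls each chemical a negative lung carcinogen, so the comparison asks how far the lungs differ between a pair of chemicals that share that label. The members are the 3 arrays of NEDD animals 12, 14 and 15 and the 3 arrays of PCNB animals 16, 18 and 20, which is 6 of the 18 arrays of the series. All were female B6C3F1 mice that entered the study at 5 weeks of age, received the chemical in the diet on 7 days a week for 13 weeks, and were killed at 18 weeks of age. NEDD was given at 2000 ppm and PCNB at 8187 ppm, so the chemical and the dietary dose cannot be told apart. RNA from the right lung lobe of each animal went onto its own Affymetrix Mouse Genome 430 array, and levels are log2 signals as deposited. The other 12 arrays (NDA, or 1,5-naphthalenediamine, in feed; benzofuran by gavage; a feed control and a corn oil control) do not enter the contrast; they add to the estimate of the spread and to the filter on low signals, and the feed controls serve as a reference level. Each animal was separate, and no litter, cage or batch is named in the labels.

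NEDD is an aromatic amine built on a naphthalene ring and is best known as the dye-forming reagent of the Griess test for nitrite. PCNB, also called quintozene, is a fully chlorinated nitrobenzene used as a soil fungicide. Foreign chemicals in the diet can reach lung genes through receptors such as the aryl hydrocarbon receptor (AhR), which drives Cyp1a1, and through the oxidant sensor NRF2, which drives glutathione and NADPH enzymes. The lung also carries resident alveolar macrophages, which clear particles with scavenger receptors such as MARCO, an interferon system whose target genes move together as a block, and a circadian clock whose output genes swing strongly over the day.

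The 6 arrays were close to one another. Pearson correlations over probe sets were 0.98913 to 0.99273 among NEDD arrays, 0.98779 to 0.99341 among PCNB arrays, and 0.98209 to 0.99414 between the groups. The lung markers Sftpc, Sftpb, Scgb1a1, Ager and Cldn5 all lay at or above the 99.16 percentile of their array on all 6. The labels grade the RNA of all 3 NEDD animals Excellent and of all 3 PCNB animals Good, with integrity numbers of 9.1 and 9.1 for NEDD 14 and 15, none given for NEDD 12, and 8.9, 8.3 and 8.3 for PCNB 16, 18 and 20. The RNA grade and the chemical therefore cannot be told apart by group. The signal of the actin 3' over its 5' control probe set, a measure of RNA degradation, was 0.49, 0.35 and 0.53 log2 units in NEDD 12, 14 and 15 and 0.58, 0.55 and 0.35 in PCNB 16, 18 and 20, which overlap.

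Of 34945 probe sets with a single gene symbol, 1 was called at an adjusted p below 0.05 (limma with Benjamini-Hochberg adjustment), a background of 0.00286%. It belongs to Marco. Before adjustment 1214 probe sets (3.47%) had a p below 0.05, where the nominal rate would give 1747. Arrays of the groups did not overlap in 5.04% of probe sets with NEDD lower and in 4.36% with NEDD higher. Over the 13434 genes that passed the filter on low signals, each at its brightest probe set, 0.00744% were called, the median difference NEDD minus PCNB was -0.01 and 52.1% of genes were lower in NEDD. The central 90% of genes lay between -0.24 and 0.23, and 9 genes differed by 2-fold or more, 6 of them lower in NEDD and 3 higher. Of these, Marco, Retnla, Bpifa1, Bpifb1, Dbp, Nr1d1 and Zbtb16 are described with their groups. The other 2 were the goblet cell gene Clca1 (-1.78 ± 0.84), which was dim in every NEDD array, and H2-T24, a nonclassical class I gene (-1.27 ± 0.40). They did not overlap between groups and were not called.

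**Figure D1:**
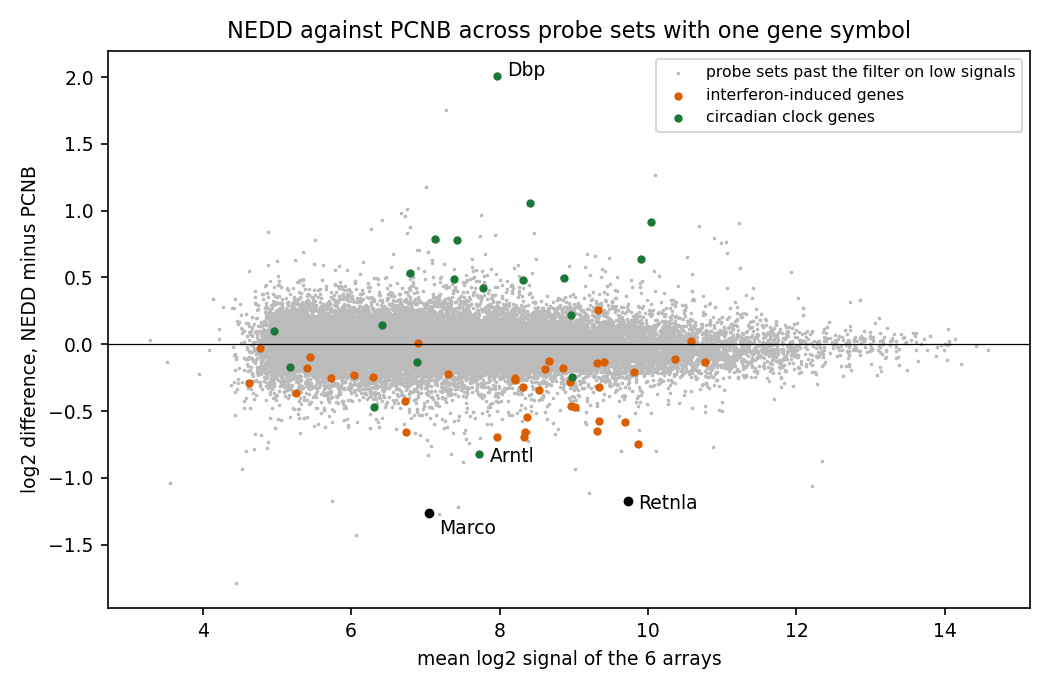
Log2 difference NEDD minus PCNB (vertical axis) against the mean log2 signal of the 6 arrays (horizontal axis), 1 point for each of the 23980 probe sets that pass the filter on low signals, with interferon-induced genes in orange and circadian clock genes in green. Most points lie within 0.5 of 0, Marco sits at -1.27 and Dbp at 2.01, and most orange points lie below the line.

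Marco encodes the macrophage receptor with collagenous structure, a scavenger receptor of alveolar macrophages that binds unopsonised particles and bacteria. Its log2 signal was 6.73, 6.23 and 6.28 in NEDD animals 12, 14 and 15 and 8.04, 7.48 and 7.52 in PCNB animals 16, 18 and 20. Every NEDD array lay below every PCNB array, by more than the range within either group. The difference, 3 arrays against 3, was -1.27 ± 0.16 (95% confidence interval -1.60 to -0.93), which is 2.41-fold more in PCNB. Its adjusted p from limma was 0.0129. The SE and this p use a spread pooled over all 18 arrays. The SD of Marco was 0.07 in NDA, 0.05 in corn oil control and 0.09 in benzofuran. Those groups outside the contrast were thus quieter than NEDD (0.27) and PCNB (0.31). With the 6 arrays alone the SE was 0.18. An exact two-sided permutation test of the 6 values gave p = 0.1, the smallest that 20 splits of 3 against 3 allow. The feed control mean was 7.46 ± 0.28 (SD, n = 3), near the PCNB mean of 7.68 ± 0.31 and above the NEDD mean of 6.41 ± 0.27 (each SD, n = 3). A second Marco probe set gave -1.17 ± 0.19, also without overlap, at an adjusted p of 0.114. The call did not survive a fit of the 6 arrays alone (adjusted p = 0.774), a fit of the 4 feed groups (0.139), or the loss of NEDD 14 (0.0943), NEDD 15 (0.18) or PCNB 16 (0.0906), while the difference itself stayed between -1.43 and -1.02 over all alternatives.

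The remaining alveolar macrophage genes did not share the size of the Marco difference. Of 20 listed macrophage genes that passed the filter, 18 were lower in NEDD, but the median was only -0.11. Marco was the only member called, against 0.00744% of all genes. It was also the only member whose arrays did not overlap, against 5.75% of all genes with NEDD lower. Lipoprotein lipase (Lpl) differed by -0.41 ± 0.20, the chitinase-like protein Chil3 by -0.32 ± 0.19 and the surface lectin Siglecf by -0.30 ± 0.20, each with overlapping arrays. Fabp4, which like Lpl is also on the list of adipocyte genes, differed by -0.64 ± 0.43 with overlapping arrays. Its 3 other probe sets ranged from -0.50 to 0.38. Cd68, a lysosomal glycoprotein, differed by -0.23 ± 0.16, the mannose receptor Mrc1 by 0.05 ± 0.12 and the cysteine protease Ctsk by -0.03 ± 0.12. The mean of the 20 genes, taken relative to each gene's mean over all arrays, was -0.23, -0.16 and -0.09 in NEDD 12, 14 and 15 and 0.18, 0.04 and -0.05 in PCNB 16, 18 and 20. In tissue RNA, fewer macrophages and less Marco RNA per macrophage cannot be told apart. The median of the 20 genes was -0.06 without PCNB 16 and -0.17 without PCNB 18.

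Retnla, a secreted resistin-like protein made by macrophages and epithelium in type 2 responses, was also lower in NEDD, with a larger SE. It stood at 9.17, 9.23 and 9.02 in NEDD 12, 14 and 15 and at 10.77, 10.38 and 9.79 in PCNB 16, 18 and 20. The feed control mean of 9.82 ± 0.37 (SD, n = 3) lay near the middle between the means of NEDD (9.14) and PCNB (10.31). That of Marco lay near PCNB. The groups did not overlap, and the difference of -1.17 ± 0.30 was not called. PCNB 16 was highest here, as it was for Marco.

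**Figure D2:**
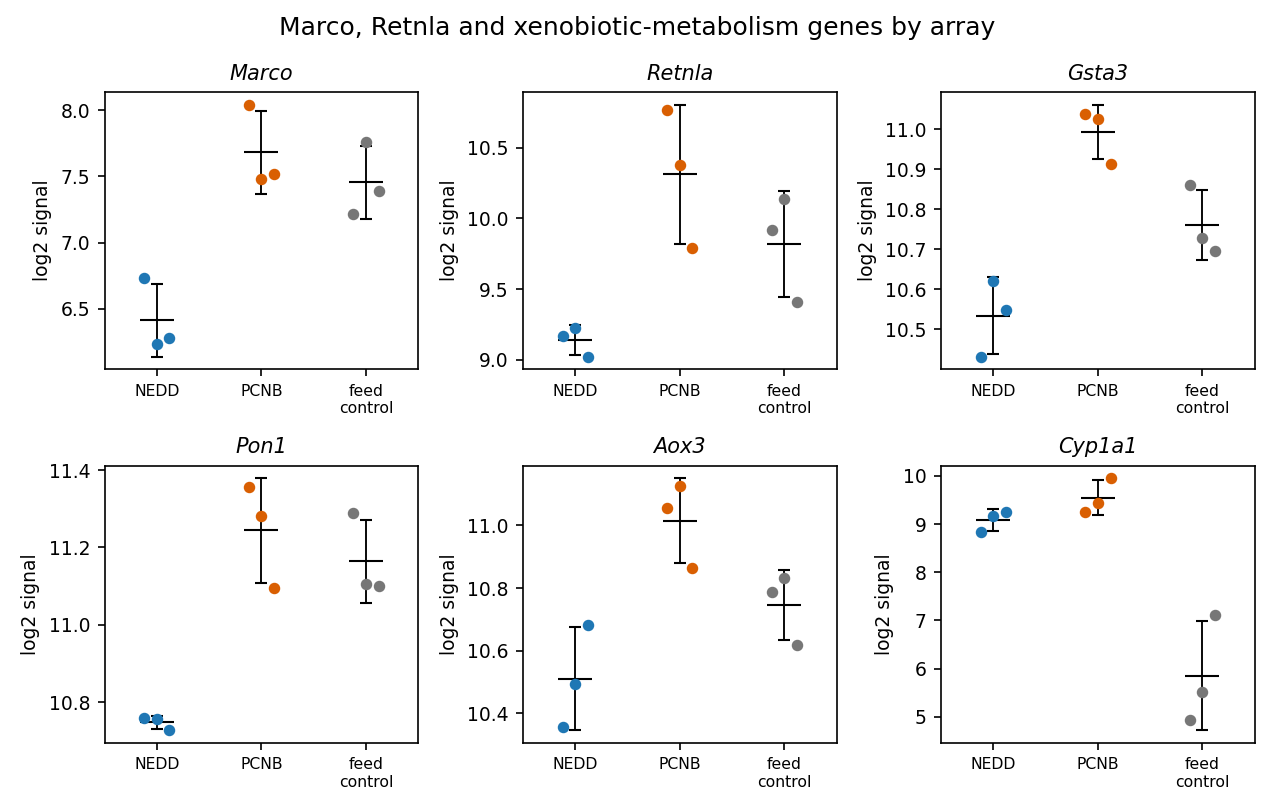
Log2 signal by array for Marco, Retnla and 4 genes of xenobiotic metabolism in NEDD (blue), PCNB (orange) and feed control (grey), with the mean and SD of 3 arrays as bars; the vertical axes do not start at 0. Marco at 6.41 in NEDD against 7.68 in PCNB is the only called difference, and Cyp1a1 is close in the treated groups while the feed control arrays are lower.

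Many of the genes that follow Marco by p belong to the interferon response. The 12 genes named as lower in NEDD are those of smallest p, each at its probe set of smallest p, whose arrays do not overlap and are not dim. Of these, 6 are on the list of interferon-induced genes (Oasl2, Oas2, Oas1a, Ifit1, Rtp4 and Ifit3), and Cmpk2 and Phf11d, known to be interferon-induced, are not on it. That the arrays of these 12 genes do not overlap follows from how they were chosen. The Oas genes make or relate to the oligoadenylate synthetases that switch on RNase L, the Ifit proteins bind viral RNA, and Cmpk2 is a nucleotide kinase. To show what these genes carry upstream, the 250 bases before the RefSeq start site (GRCm38.p6) are printed for 3 of them, chosen because their windows hold the core letters of the interferon-stimulated response element, that is GAAA, any 2 bases and GAAA again on either strand, at 2 places each (overlapping matches counted separately). Capitals mark the matches. The Oas1a window lies at chr5:120907526-120907775 on the minus strand, that of Ifit1 at chr19:34640639-34640888 and that of Ifit3 at chr19:34583279-34583528, the last 2 on the plus strand.
Oas1a: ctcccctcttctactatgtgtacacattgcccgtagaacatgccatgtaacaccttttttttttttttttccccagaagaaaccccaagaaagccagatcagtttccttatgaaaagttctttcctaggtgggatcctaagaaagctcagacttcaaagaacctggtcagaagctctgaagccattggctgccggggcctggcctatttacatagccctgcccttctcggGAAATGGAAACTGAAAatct
Ifit1: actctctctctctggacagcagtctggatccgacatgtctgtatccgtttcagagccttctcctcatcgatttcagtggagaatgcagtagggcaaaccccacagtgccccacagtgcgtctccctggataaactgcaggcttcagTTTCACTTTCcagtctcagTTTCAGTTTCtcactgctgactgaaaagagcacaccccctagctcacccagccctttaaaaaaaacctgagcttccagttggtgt
Ifit3: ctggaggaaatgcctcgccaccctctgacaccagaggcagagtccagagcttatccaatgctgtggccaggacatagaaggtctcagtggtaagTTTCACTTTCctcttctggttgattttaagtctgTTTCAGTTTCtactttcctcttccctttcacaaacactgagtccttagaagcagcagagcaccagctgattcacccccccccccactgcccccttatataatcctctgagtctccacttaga

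The matches begin 20 and 14 bases upstream of the start in Oas1a, 104 and 85 in Ifit1, and 156 and 122 in Ifit3. Those of Oas1a overlap each other, and those of Ifit1 and Ifit3 stand apart. The windows of Oasl2, Cmpk2 and Phf11d held none, and Oas2 and Rtp4 were not matched. Of the 27 interferon-induced genes with a promoter in the RefSeq table, 13 (48.1%) held the core, against 3.46% of 27025 genes with a promoter. A match of these letters is a description of the window and not evidence of a bound factor.

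Oasl2 was at 7.81, 8.16 and 8.00 in NEDD 12, 14 and 15 and at 8.79, 8.71 and 8.54 in PCNB 16, 18 and 20. Oas2 was at 6.32, 6.48 and 6.42 in the NEDD animals and at 7.29, 7.08 and 6.83 in the PCNB animals. In each gene all NEDD arrays lay below all PCNB arrays, with NEDD 12 the lowest. Oasl2 differed by -0.69 ± 0.13 (adjusted p = 0.426, limma) and Oas2 by -0.66 ± 0.13 (adjusted p = 0.59), so neither was called. The feed control means of 8.13 for Oasl2 and 6.44 for Oas2 lay near the NEDD means of 7.99 and 6.41 and below the PCNB means of 8.68 and 7.07.

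Oas1a, whose upstream window is printed above, was at 7.35, 7.88 and 7.62 in NEDD 12, 14 and 15 and at 8.41, 8.38 and 8.14 in PCNB 16, 18 and 20, a difference of -0.69 ± 0.14. Ifit1 was at 7.72, 8.16 and 8.14 in NEDD and at 8.58, 8.89 and 8.52 in PCNB, a difference of -0.66 ± 0.15. Ifit3 was at 9.09, 9.74 and 9.36 in NEDD and at 9.94, 10.00 and 10.00 in PCNB, a difference of -0.58 ± 0.15. All 3 were without overlap, NEDD 12 was again lowest, and none was called. The feed control means of Ifit1 (8.38) and Ifit3 (9.67) lay near the middle between the NEDD and PCNB means.

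Across the whole list of interferon-induced genes, 38 passed the filter, and 35 of them were lower in NEDD, with a median of -0.26 against -0.01 over all genes. None was called, 16 had an unadjusted p below 0.05 in that direction, against 1.83% of all genes, and 20 were without overlap, against 5.75%. The 3 genes that were higher in NEDD were Rsad2 (0.26), Ifi27 (0.02) and Stat2 (0.01). Mx1 (-0.02) and Cxcl10 (-0.09) stood near 0. The mean of the 38 genes was -0.22, 0.01 and -0.15 in NEDD 12, 14 and 15 and 0.21, 0.19 and 0.17 in PCNB 16, 18 and 20, with the feed control arrays between -0.10 and 0.08. The PCNB animals were thus tightly grouped and the NEDD animals spread, NEDD 14 being at the level of the controls. Set against the same 3 feed controls, which both differences share, the list's median was -0.12 for NEDD and 0.19 for PCNB. Leaving out single animals kept the median between -0.31 and -0.23 and the number with an unadjusted p below 0.05 between 11 and 17.

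**Figure D3:**
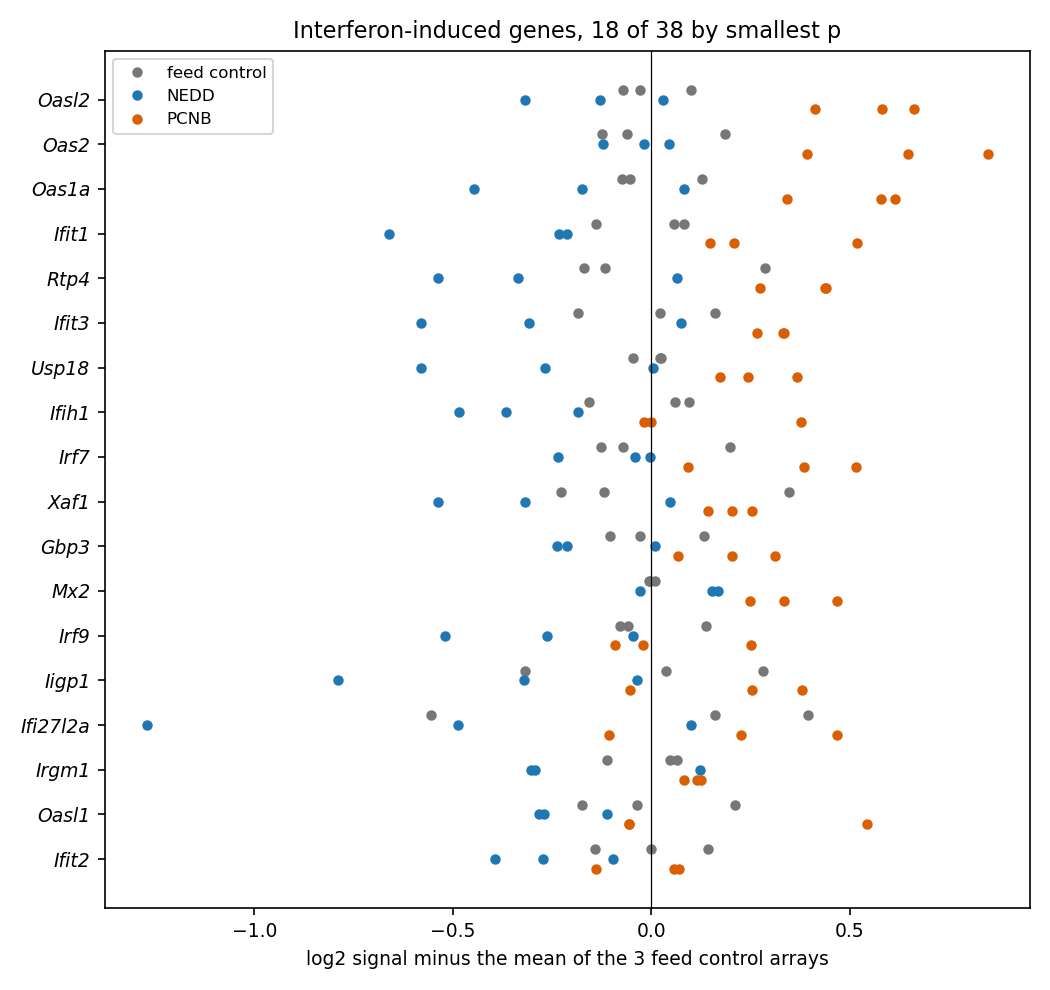
Log2 signal of 18 interferon-induced genes, those of smallest p among 38, by array, as the difference from the mean of the 3 feed control arrays (horizontal axis); feed control grey, NEDD blue, PCNB orange. PCNB points lie mostly right of 0 and NEDD points mostly left of it, and for Oasl2 every PCNB array is above every feed control array.

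T and NK cell genes did not share 1 direction. The list of T and NK cell genes as a whole had a median of 0.03 over 21 genes, and it was divided after its values had been seen, so the following is a description with no test. The 9 genes of natural killer and cytotoxic cells were all lower in NEDD (median -0.42), and 7 were without overlap. The share over all genes was 5.75%, which is given for scale only, since the split followed the values. Of the 12 general T cell genes 11 were higher in NEDD (median 0.12), and none was without overlap. In the whole list 6 genes had an unadjusted p below 0.05 with NEDD lower and 2 with NEDD higher. Without NEDD 15 these counts were 2 and 0, and without PCNB 18 the list's median was -0.06. Granzyme A (Gzma), a killer cell protease, was at 9.78, 9.78 and 9.55 in NEDD 12, 14 and 15 and at 10.54, 10.47 and 10.50 in PCNB 16, 18 and 20, a difference of -0.80 ± 0.24. The activating NK receptor Ncr1 was at 6.65, 6.67 and 6.44 in NEDD and at 7.21, 7.23 and 7.37 in PCNB, a difference of -0.68 ± 0.24. Both genes had feed control means (10.16 and 7.05) between the groups. Within corn oil controls Gzma ran from 9.99 to 11.17 and Ncr1 from 6.75 to 7.97, so undosed animals differed widely too. The chemokine Ccl5 differed by -0.67 ± 0.25, granzyme B (Gzmb) by -0.60 ± 0.24, perforin (Prf1) by -0.39 ± 0.16 and the receptor Klrk1 by -0.38 ± 0.15. The T cell receptor subunit Cd3e differed by 0.24 ± 0.10 and Cd3g by 0.26 ± 0.20, while Cd8a (0.10 ± 0.12) and Cd4 (0.05 ± 0.11) were near 0. None of these genes was called, and whether cell number or RNA per cell differed cannot be told apart.

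Enzymes that handle foreign chemicals were mostly lower in NEDD, by small amounts. Gsta3, a glutathione transferase, was at 10.43, 10.62 and 10.55 in NEDD 12, 14 and 15 and at 11.04, 11.03 and 10.91 in PCNB 16, 18 and 20. Pon1, the paraoxonase that hydrolyses lactones and organophosphate oxons, was at 10.76, 10.76 and 10.73 in NEDD and at 11.36, 11.28 and 11.09 in PCNB. Aox3, an aldehyde oxidase, was at 10.36, 10.49 and 10.68 in NEDD and at 11.06, 11.13 and 10.86 in PCNB. Every NEDD array lay below every PCNB array in all 3, a condition of the rule that named them. The differences were -0.46 ± 0.10 for Gsta3, -0.50 ± 0.11 for Pon1 and -0.50 ± 0.11 for Aox3, each at an adjusted p of 0.843 in limma. The feed control mean of Gsta3 (10.76) lay between the groups, and so did that of Aox3 (10.75), while that of Pon1 (11.16) was near PCNB (11.24). Aox1, a second aldehyde oxidase, differed by -0.42 ± 0.11 without overlap.

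Of 29 NRF2 targets that passed the filter, 26 were lower in NEDD (median -0.16). None was called, and 3 had an unadjusted p below 0.05 in that direction, against 1.83% of all genes. These were Gsta3, Gclc, the catalytic subunit of glutamate-cysteine ligase (-0.48 ± 0.17), and Pgd of the pentose phosphate pathway (-0.24 ± 0.09). The sulfiredoxin gene Srxn1 differed by -0.31 ± 0.15, Nqo1 by -0.27 ± 0.19, Txnrd1 by -0.17 ± 0.10 and Hmox1 by -0.13 ± 0.19. Osgin1, an oxidative stress growth inhibitor, differed by 0.28 ± 0.16 without overlap. It was the 1 such gene of the list with NEDD higher, against 4.32% of all genes. With NEDD lower there were 9 without overlap, against 5.75% of all genes. The count with an unadjusted p below 0.05 ran from 2, without NEDD 12 or without PCNB 16, to 8 with array weights, and was 5 without NEDD 15. Array weights also raised that count over all 34945 probe sets, from 1214 to 4055. Against the shared feed controls, 28 of the 29 genes were higher in PCNB (median 0.20) and 16 in NEDD (median 0.05).

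No AhR target was called, and of those given here Cyp1a1 had the widest error. Cyp1a1, the classical AhR-induced monooxygenase, was at 8.83, 9.18 and 9.25 in NEDD 12, 14 and 15 and at 9.25, 9.44 and 9.95 in PCNB 16, 18 and 20. The highest NEDD array and the lowest PCNB array were nearly equal, and the difference of -0.46 ± 0.44 had a 95% confidence interval of -1.39 to 0.46, so a difference in either direction is within the error. All 6 arrays lay above the 3 feed control arrays, whose mean was 5.85 ± 1.13 (SD, n = 3). Cyp1b1 differed by -0.29 ± 0.21 and Ces1g, a carboxylesterase, by -0.25 ± 0.12, with overlapping arrays. Aldh3a1 differed by -0.51 ± 0.21, the receptor gene Ahr by -0.31 ± 0.14 and its partner Arnt by 0.07 ± 0.10. A second Ahr probe set gave 0.04, the opposite sign. Over the 8 AhR genes that passed the filter 6 were lower in NEDD, and the median was -0.28. In that direction 2 had an unadjusted p below 0.05, against 1.83% of all genes, and the count was 0 without NEDD 14. The mean of the 8 genes was -0.32, -0.33 and -0.14 in NEDD 12, 14 and 15. In PCNB 16, 18 and 20 it was -0.07, 0.03 and 0.00, without overlap. Leaving out single animals kept the median between -0.38 and -0.21. The lists of phase I enzymes (23 genes, median -0.06) and phase II enzymes (17 genes, median -0.13) stood closer to 0. The first ran from -0.12 without NEDD 15 to -0.04 without NEDD 14, and the second was -0.08 without PCNB 18.

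Among genes that were higher in NEDD, several with large differences were circadian clock genes. Dbp, a clock output transcription factor, was at 8.42, 9.18 and 9.29 in NEDD 12, 14 and 15 and at 5.80, 6.28 and 8.80 in PCNB 16, 18 and 20. PCNB 20 lay inside the NEDD range, and the other PCNB arrays lay more than 2 log2 units below it. The difference was 2.01 ± 0.68, not called, and a second Dbp probe set gave 1.75 ± 0.64. Nr1d1, the repressor REV-ERB alpha, was at 8.95, 8.70 and 9.18 in NEDD and at 6.89, 7.88 and 8.86 in PCNB, a difference of 1.06 ± 0.46, again with PCNB 20 inside the NEDD range. Arntl (BMAL1), which peaks opposite to Dbp in the daily cycle, was at 7.37, 7.29 and 7.28 in NEDD and at 8.68, 8.27 and 7.45 in PCNB, a difference of -0.82 ± 0.32. PCNB 20 was again the PCNB array nearest to NEDD.

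Per2, a period gene of the negative arm of the clock, was without overlap on all 3 of its probe sets. On the one of smallest p it was at 7.42, 7.13 and 6.93 in NEDD 12, 14 and 15 and at 6.21, 5.92 and 6.40 in PCNB 16, 18 and 20. The difference was 0.98 ± 0.26, and the other probe sets gave 0.79 ± 0.23 and 0.55 ± 0.19, none of them called. Bhlhe40, a repressor of clock targets, differed by 0.49 ± 0.13 and Wee1, a mitotic kinase under clock control, by 0.49 ± 0.15, both without overlap. The PAR-domain factor Tef differed by 0.64 ± 0.23 and Nr1d2 by 0.91 ± 0.35, with PCNB 20 inside the NEDD range in both.

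Of 19 clock genes measured, 14 were higher in NEDD and 5 lower, with a median of 0.48. None was called. In the higher direction 10 had an unadjusted p below 0.05, against 2.04% of all genes, and 5 were without overlap, against 4.32%; 1 gene, Arntl, had such a p in the lower direction. Without PCNB 16 the 10 became 3 and the median 0.37, and without PCNB 20 they were 10 and 0.55. The labels give no time of day for the kill, so an effect of sampling time was not tested and cannot be told apart from the chemical. Within feed controls Dbp ran from 7.10 to 8.49, and within corn oil controls from 7.47 to 9.76, so untreated animals differed too. The window upstream of one start of Tef is printed because it carries the E-box CACGTG, the letters that CLOCK and BMAL1 bind, in capitals; it lies at chr15:81802423-81802672 on the plus strand of GRCm38.p6 in RefSeq, and the E-box begins 127 bases upstream.
Tef: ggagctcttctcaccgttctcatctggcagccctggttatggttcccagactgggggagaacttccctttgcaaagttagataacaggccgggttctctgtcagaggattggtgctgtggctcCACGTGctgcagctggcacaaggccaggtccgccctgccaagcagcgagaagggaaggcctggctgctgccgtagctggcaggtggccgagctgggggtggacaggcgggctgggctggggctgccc

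Of 16 clock genes with a promoter in the table, 5 (31.2%) held CACGTG, which reads the same on both strands, in such a window, against 6.86% of 27025 genes. The windows of Dbp, Nr1d1 and Nr1d2 held none, and Per2 was not matched.

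**Figure D4:**
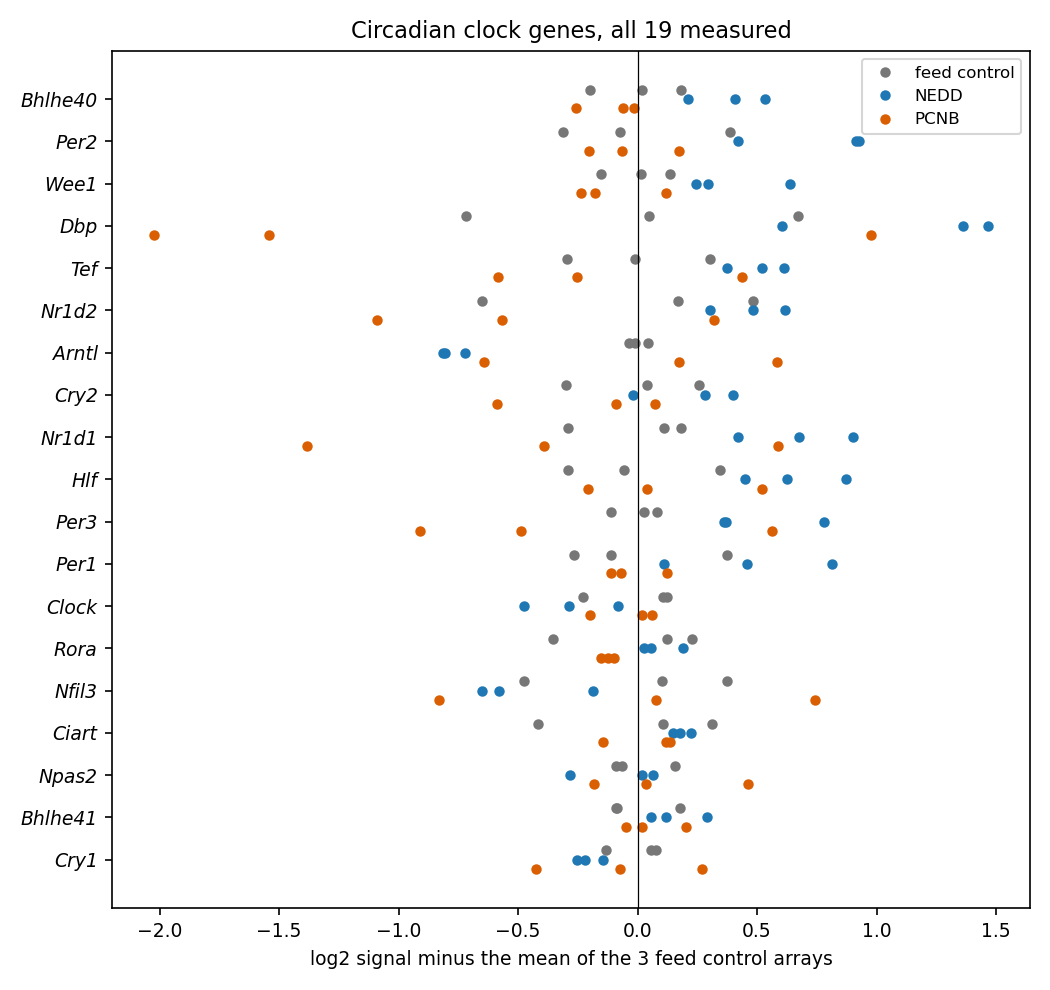
Log2 signal of all 19 measured clock genes by array, as the difference from the mean of the 3 feed control arrays (horizontal axis); feed control grey, NEDD blue, PCNB orange. For Dbp, Nr1d1 and Per3 a single PCNB point, animal 20, lies with the NEDD points, and the other PCNB points lie left of 0.

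Glucocorticoid-responsive genes, many of which also follow the daily hormone cycle, were likewise mostly higher in NEDD. Tsc22d3 (GILZ), an anti-inflammatory leucine zipper protein, was at 11.66, 11.19 and 11.43 in NEDD 12, 14 and 15 and at 10.44, 10.83 and 10.72 in PCNB 16, 18 and 20 on its brightest probe set. The groups did not overlap and the difference was 0.77 ± 0.23. Zbtb16 was at 10.98, 10.18 and 11.02 in NEDD and at 8.29, 9.86 and 10.25 in PCNB, a difference of 1.26 ± 0.59 with overlapping arrays. The phosphatase Dusp1 differed by 0.54 ± 0.19, the cell cycle inhibitor Cdkn1a by 0.47 ± 0.20 and Klf9 by 0.35 ± 0.15. Of 14 listed genes 13 were higher in NEDD (median 0.34), and none was called. In that direction 5 had an unadjusted p below 0.05, against 2.04% of all genes. That count was 2 without NEDD 12, 1 without NEDD 15, 3 without PCNB 16 and 8 without NEDD 14. The mean of the 14 genes was 0.34, -0.09 and 0.43 in NEDD 12, 14 and 15 and -0.38, -0.05 and -0.11 in PCNB 16, 18 and 20, so NEDD 14 lay within the PCNB range. Feed controls 27, 28 and 29 were at -0.28, 0.01 and 0.28, so undosed animals reached into the range of each group. The endothelial shear stress factor Klf2, listed among immediate early genes, was at 11.53, 11.00 and 11.34 in NEDD and at 10.90, 10.09 and 10.50 in PCNB, a difference of 0.79 ± 0.21.

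The remaining genes named by the smallest p with NEDD higher were of varied function. The matrix proteoglycan fibromodulin (Fmod) was at 7.17, 6.75 and 6.80 in NEDD 12, 14 and 15 and at 6.28, 6.18 and 6.22 in PCNB 16, 18 and 20, with a feed control mean of 6.83. Here the PCNB arrays were the ones apart from the controls. The difference was 0.68 ± 0.17 on a probe set that can cross-hybridise, and the 5 other Fmod probe sets gave only 0.15 to 0.32. The cadherin Cdh16 differed by 0.43 ± 0.09 (adjusted p = 0.843, limma), the giant cadherin Dchs1 by 0.52 ± 0.14, Fam124a by 0.37 ± 0.10, Septin1 by 0.48 ± 0.13 and the adhesion adaptor Sorbs3 by 0.43 ± 0.12. The SUMO ligase Pias4 differed by 0.31 ± 0.08, but its 2 other probe sets gave -0.12 and 0.15. The splicing factor Sf1 differed by 0.90 ± 0.22 on a probe set that can cross-hybridise, and its 4 other probe sets ranged from -0.21 to 0.20. A dim probe set of Tmem125 that failed the filter differed by 0.61 ± 0.10 (adjusted p = 0.0973), while the brighter probe set of the same gene differed by 0.01 ± 0.22.

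Motile cilium genes were lower in NEDD by small amounts. Of 32 that passed the filter, 29 were lower (median -0.18), and none was called. An unadjusted p below 0.05 was found for 5, against 1.83% of all genes in that direction, and 6 were without overlap, against 5.75%. The median was -0.11 without PCNB 18. Spag16, of the axoneme's central pair, was at 6.90, 7.04 and 6.58 in NEDD 12, 14 and 15 and at 7.64, 7.31 and 7.00 in PCNB 16, 18 and 20, a difference of -0.47 ± 0.18. The adenylate kinase Ak7 differed by -0.29 ± 0.11 without overlap. Ccdc39, which sets the spacing of axonemal repeats, differed by -0.39 ± 0.16. The mean of the 32 genes was -0.31, -0.35 and -0.33 in NEDD and -0.16, -0.05 and -0.27 in PCNB, so each NEDD array was below each PCNB array. The count of 5 was 2 without NEDD 12, 3 without NEDD 14, 2 without NEDD 15, 1 without PCNB 16 and 3 without PCNB 18. Against the shared feed controls all 32 genes were lower in NEDD (median -0.29) and 31 in PCNB (median -0.15). The mean of the 32 genes was 0.11, 0.09 and -0.20 in feed controls 27, 28 and 29. The PCNB arrays thus overlapped the feed controls, while every NEDD array lay below them. Intraflagellar transport genes, which build cilia, were lower in NEDD in 20 of 24 cases (median -0.12).

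Secretory genes of the airways varied widely among animals. Of 15 genes 12 were lower in NEDD, with a median of -0.10 that was -0.33 without PCNB 16 and -0.04 without PCNB 18. Only 1 of the 15, the secretoglobin Scgb3a1, was without overlap, where 5.75% of all genes were so with NEDD lower. It was at 12.33, 12.06 and 11.34 in NEDD 12, 14 and 15 and at 12.49, 13.44 and 12.41 in PCNB 16, 18 and 20. The difference of -0.87 ± 0.37 was not called. Bpifa1, an antimicrobial protein of airway secretions, was at 12.39, 12.13 and 10.54 in NEDD 12, 14 and 15 and at 12.34, 13.66 and 12.23 in PCNB 16, 18 and 20. Its relative Bpifb1 was at 9.22, 9.38 and 7.35 in NEDD and at 9.05, 10.70 and 9.54 in PCNB. NEDD 15 was lowest and PCNB 18 highest in both, and the differences of -1.06 ± 0.56 and -1.12 ± 0.55 came with overlapping arrays. Cardiac muscle genes, which mark the sleeves of muscle around pulmonary veins, had the lowest median of all 40 lists (-0.33, 20 genes), and it was -0.05 without NEDD 15 and -0.51 without NEDD 14. Their mean was 0.11, 0.04 and -0.85 in NEDD 12, 14 and 15 and 0.02, 0.39 and -0.18 in PCNB 16, 18 and 20. NEDD 15 was thus low for both airway secretory and venous muscle genes, and a difference in the piece of lobe sampled was not tested.

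Cell cycle genes were slightly higher in NEDD. Of 31 that passed the filter, 28 were higher (median 0.18), and none was called. An unadjusted p below 0.05 was found for 4, against 2.04% of all genes in that direction, and 8 were without overlap, against 4.32%. The mean of the 31 genes was 0.02, -0.01 and 0.03 in NEDD 12, 14 and 15. In PCNB 16, 18 and 20 it was -0.27, -0.04 and -0.21. The means of the undosed groups lay further apart, at -0.28 in feed controls and 0.26 in corn oil controls. Mki67, which marks dividing cells, was at 7.39, 7.42 and 7.55 in NEDD 12, 14 and 15 and at 6.74, 7.36 and 6.77 in PCNB 16, 18 and 20, a difference of 0.50 ± 0.22. PCNB 18 lay just under the NEDD range and the other PCNB arrays well below it. Racgap1, needed for cytokinesis, differed by 0.34 ± 0.10, cyclin B2 (Ccnb2) by 0.48 ± 0.22 and cyclin A2 (Ccna2) by 0.38 ± 0.18. Without PCNB 18 the count with an unadjusted p below 0.05 was 8 and the median 0.27, and the count was 1 or 2 without any other of the 6 animals. Red blood cell genes were split. The haem synthesis enzyme Alas2 differed by 0.76 ± 0.26 and the beta-globin gene Hbb-b2, whose probes can match near-identical globin copies, by 0.67 ± 0.25, both without overlap, but the transferrin receptor Tfrc by -0.36 ± 0.14. A second Hbb-b2 probe set gave -0.28, the opposite sign.

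Neutrophil genes were higher in NEDD in 12 of 14 cases (median 0.26, which was 0.16 without NEDD 15 and 0.17 without PCNB 18), with PCNB 20 above the NEDD range for S100a8 and S100a9. S100a8, a calcium-binding alarmin, was at 11.52, 11.35 and 11.64 in NEDD 12, 14 and 15 and at 10.85, 10.62 and 11.94 in PCNB 16, 18 and 20. The interleukin gene Il1b differed by 0.56 ± 0.25 and the receptor Cxcr2 by 0.30 ± 0.11, both with overlapping arrays. Lists with medians near 0 included platelet genes (0.00, 9 genes), metal and liver-type genes (0.02, 12 genes), heat shock genes (-0.03, 14 genes), oxidative phosphorylation (-0.04, 27 genes), fatty acid oxidation (-0.04, 19 genes), DNA repair (0.04, 23 genes) and matrix and fibroblast genes (0.05, 27 genes). Proteasome genes (-0.05, 31 genes), complement genes (-0.07, 10 genes), unfolded protein genes (-0.07, 20 genes), chemokines (-0.05, 23 genes), skeletal muscle (0.05, 7 genes), smooth muscle (0.07, 12 genes), p53 targets (0.06, 16 genes) and immediate early genes (0.09, 16 genes) were also near 0. Proteasome genes were nevertheless lower in NEDD in 27 of 31 cases and complement genes in 9 of 10. For unfolded protein genes the count was 15 of 20 and for oxidative phosphorylation 22 of 27, against 52.1% of all genes. None was called. Among proteasome genes 7 were without overlap with NEDD lower, against 5.75% of all genes. After quantile normalization 21 proteasome and 15 oxidative phosphorylation genes were lower. Leaving out 1 animal could change the sign of the platelet, metal and liver-type, heat shock, fatty acid oxidation, DNA repair, skeletal muscle and smooth muscle medians. Cholesterol and fatty acid synthesis genes (-0.13, 22 genes), B and plasma cell genes (-0.14, 16 genes) and MHC class II genes (-0.12, 9 of 9 lower) leaned lower in NEDD. So did mast cell genes (-0.18, 4 of 4 lower), mesothelial genes (-0.17, 8 of 8 lower) and adipocyte genes (-0.23, 9 of 11 lower). Single animals decided much of this. The mesothelial median was -0.54 without PCNB 16, -0.01 without PCNB 18 (4 of 8 lower) and -0.05 without PCNB 20, and the adipocyte median was -0.41 without PCNB 16 and -0.07 without PCNB 18. The cholesterol median was -0.05 without PCNB 16 and -0.07 without NEDD 15. The B and plasma cell median was -0.23 without PCNB 16, -0.07 without NEDD 14 and -0.04 without PCNB 20, and the MHC class II median was -0.06 without PCNB 18. The mean of the adipocyte genes ran from -0.50 to -0.06 in NEDD and from -0.36 to 0.45 in PCNB. Alveolar type 2 genes had a median of -0.05, alveolar type 1 genes 0.07 and endothelial genes 0.06. Within the endothelial list the peptide hormone Apln differed by 0.38 ± 0.11 and the receptor Tie1 by 0.30 ± 0.12, each without overlap and neither called.

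**Figure D5:**
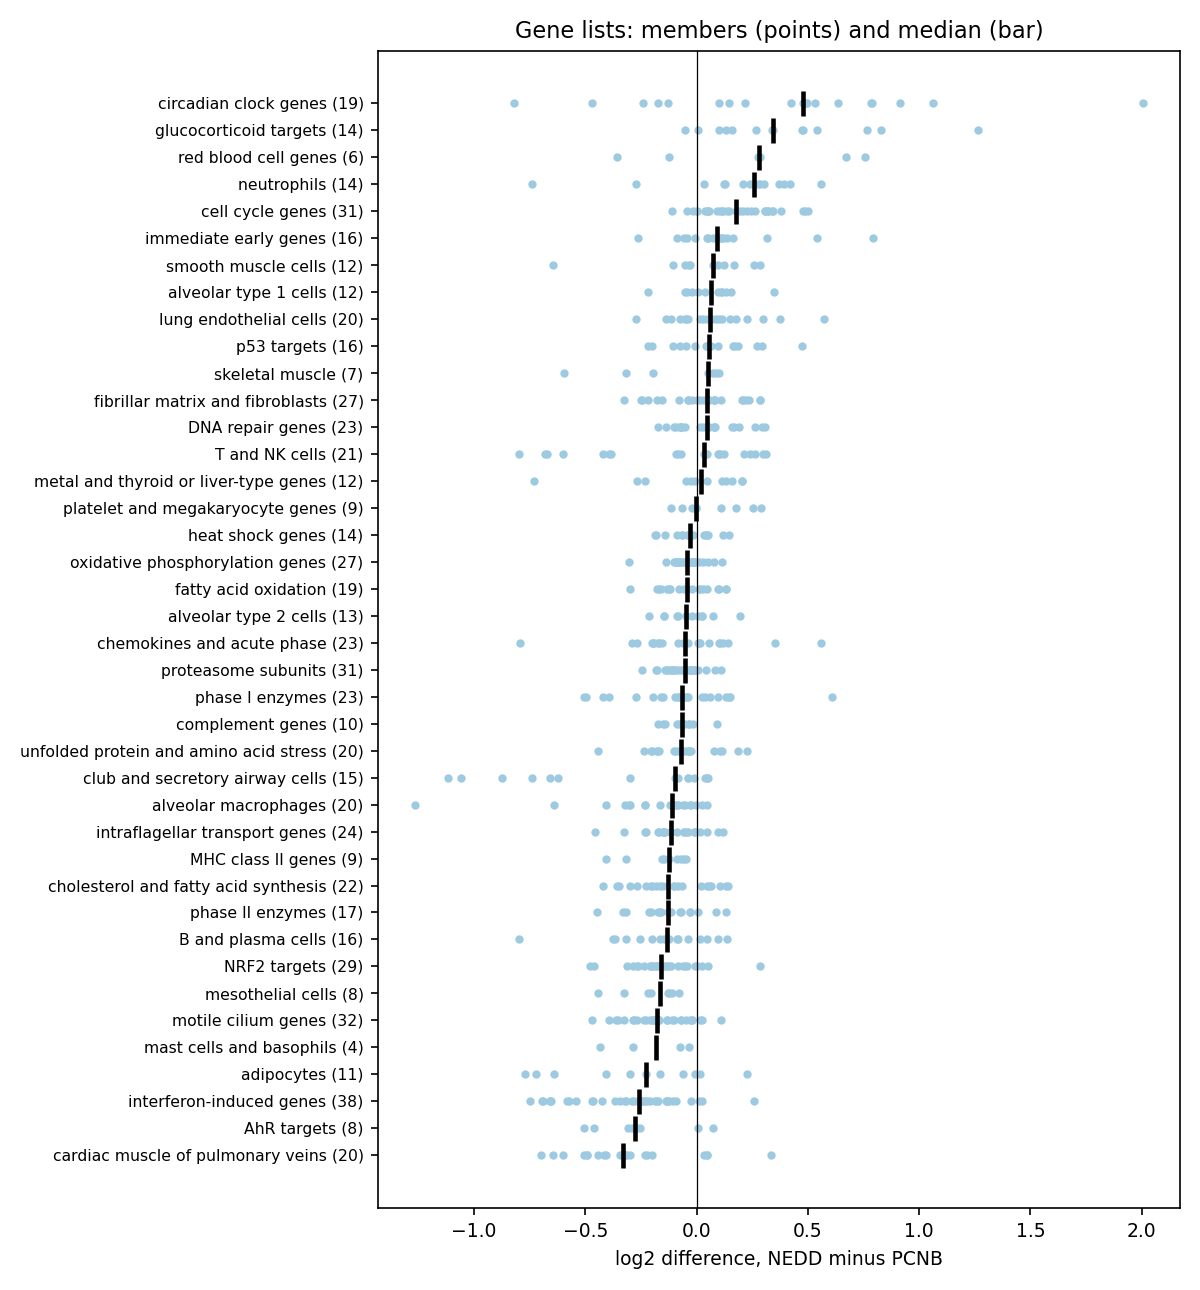
Log2 difference NEDD minus PCNB for the members of each of 40 gene lists that pass the filter on low signals (points) with the list's median (bar); the number of members is in parentheses and lists are sorted by median. Medians run from -0.33 for cardiac muscle genes to 0.48 for clock genes.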

How the data were processed

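The authors deposited 1 log2 value per probe set and array for 18 arrays. The base of the logarithm was judged from the range of 2.483 to 14.78, and no source used here gives the summary or normalization method. The platform annotation supplied gene names: of 45101 probe sets, 34945 had 1 gene symbol, 932 several, 9160 none and 64 were controls. Array medians were 5.678 to 5.803, and the values were used unscaled. With limma 3.58.1 (R 4.3.3), 1 mean per group was estimated over the 18 arrays (12 residual degrees of freedom), NEDD minus PCNB was tested on all 34945 probe sets, and the Benjamini-Hochberg adjustment covered all of them. A difference is called at an adjusted p under 0.05. Errors are SEs of that fit unless given as SD. Gene lists use each gene's brightest probe set, provided that 3 or more arrays have it over their own 40th percentile. Precision is limited by having 3 arrays a group.

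The members, the 40 lists and the tests were chosen with earlier results of these data known. Named genes are the 12 per direction of smallest p (called first, arrays not overlapping, not dim, no clone names), up to 4 per list, any called member, and Cyp1a1, Cyp1b1, Nqo1, Ces1g and Marco. All other genes with values were chosen after their values were seen. Other sets of arrays, filters, scalings, array weights, an RNA quality covariate and leaving out single animals were tried as alternatives. The fit was tested on simulated data. Promoter windows are RefSeq's (GRCm38.p6), matched by symbol.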

Additional observations from a re-analysis of the deposited data

How the results depend on the processing

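The count of 1 called probe set became 0 with only the 6 NEDD and PCNB arrays (1529 with an unadjusted p below 0.05) and 0 with only the 4 feed groups (1851), 2 after quantile normalization (Marco and the dim Tmem125 probe set) and 20 with array weights. With array weights 14 of the 20 were lower in NEDD and 6 higher, among them Oasl2, Oas2, Oas1a, Ifit1, Ifit3, Gsta3, Pon1, Aox3, Klf2 and Fmod. NEDD 12 then had a weight of 2.74 and benzofuran 10 one of 0.167. The probe sets with an unadjusted p below 0.05 rose from 1214 without weights to 4055 with them, of 34945. In the interferon list such genes rose from 16 to 25, so the rise was not particular to that list. Of the 25, 6 were called (Cmpk2 and Phf11d, also called, are not on that list). Leaving out single animals gave counts from 0 to 1; without NEDD 14 the single call was Ddit4 (1.37, adjusted p = 0.0254 in limma), not Marco, and without NEDD 15 or PCNB 16 there was none (1039 and 941 with an unadjusted p below 0.05). The filter on low signals, 1 probe set per gene, median centring, the RNA quality covariate, the intensity trend and the fit without benzofuran 10 each kept Marco as the single call. The causes were not tested.

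Of 2731 alternative values for 171 named probe sets, 2711 were counted as unchanged. Unchanged meant the same side of the threshold, with a turn of sign allowed where the value moved by less than 1 SE. Another 14 passed the threshold (all with array weights), 5 (Marco) no longer did, and 1 (Hsph1) turned sign by 1 SE or more. Marco alone was called in the main fit. For the other probe sets the count of 2711 therefore does not measure how far a difference moved. Of 640 alternative list medians 19 moved by more than the spread between replicates. No paired analysis was possible because the NEDD and PCNB animals share no animal numbers. With 3 arrays a group, a difference that was not called is not shown to be absent.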
